A study of Mus musculus with 20 samples.

Results

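Aurka, Aurkb, Plk1, Bub1, Bub1b, Cdc20, Mad2l1, Ttk, Melk and Fbxw7 encode mitotic kinases, the core of the spindle assembly checkpoint and a ubiquitin ligase subunit that marks MYC proteins for destruction. They were followed across ganglia, tumors and sphere cultures of mice with a MYCN transgene. The members were chosen by name, and every probe set that the array's annotation assigned to one of these 10 symbols was taken. They made up 19 probe sets of the 45037 analysed and 10 of the 18193 named genes.

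Cells that enter mitosis switch on a set of protein kinases that build the spindle, attach it to chromosomes and hold back the separation of sister chromatids until every kinetochore is attached. The spindle checkpoint, made of proteins such as BUB1, BUBR1, MAD2 and TTK, does the holding by binding CDC20, the activator of the anaphase-promoting complex, a ubiquitin ligase. In neuroblastoma, a childhood cancer of sympathetic origin, the MYCN protein is bound by Aurora A, the product of Aurka, which shields it from degradation through FBXW7, the product of Fbxw7. Transcripts of most of these genes are made mainly by dividing cells, in late S, G2 and M phase.

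RNA from 20 samples was hybridised to Affymetrix Mouse Genome 430 2.0 arrays, 1 array per sample. The groups were 4 ganglia of wild-type 129+Ter/SvJcl mice, 2 ganglia, 4 tumors and 2 Mdk knockout tumors of mice homozygous for the MYCN transgene (MYCN Tg), 4 tumors and 2 tumorsphere cultures of mice hemizygous for it, and 2 neurosphere cultures of wild-type mice. All transgenic groups were on a mixed 129+Ter/SvJcl background, and Mdk encodes midkine, a secreted growth factor. The labels do not give ages, the promoter of the transgene, which ganglia were taken, or whether the replicates are different animals or cultures. The p-values therefore measure only how far these samples spread, part of which may be technical. Values are the authors' scaled probe set intensities on a linear scale. Where a gene had several probe sets, the brightest on average over the 20 arrays stood for it, and differences are between group means of log2(intensity + 16), which understates the change of dim genes.

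The promoters of the genes that move together are shown first, because 6 of them carry, in the 120 bases before the start site, letters of motifs that factors of the cell cycle or MYC proteins are known to bind. The RefSeq promoter table (GRCm38.p6) held windows for 9 of the 10 genes, with 250 bases before and 50 after the start site, and no window for Aurkb. The capitals mark CCAAT, read by NF-Y and written ATTGG on the other strand, the cell cycle homology region (CHR) as TTTGAA and in its other form TTTAAA, and the E-box CACGTG, the canonical MYC site. The genomic positions of the stretches are chr4:118437344-118437463 on the minus strand for Cdc20, chr7:122159315-122159434 on the plus strand for Plk1 and chr2:172370571-172370690 on the minus strand for Aurka. For Ttk the position is chr9:83834569-83834688 on the plus strand, for Bub1 chr2:127831860-127831979 on the minus strand and for Bub1b chr2:118598091-118598210 on the plus strand. These 6 were picked after the matches were known, and each is written 5′ to 3′ on the strand of its gene.
Cdc20: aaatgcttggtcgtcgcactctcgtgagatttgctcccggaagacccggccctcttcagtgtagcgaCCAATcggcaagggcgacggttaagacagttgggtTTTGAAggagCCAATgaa
Plk1: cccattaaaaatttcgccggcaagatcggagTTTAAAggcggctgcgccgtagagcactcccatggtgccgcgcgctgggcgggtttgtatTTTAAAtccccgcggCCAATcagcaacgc
Aurka: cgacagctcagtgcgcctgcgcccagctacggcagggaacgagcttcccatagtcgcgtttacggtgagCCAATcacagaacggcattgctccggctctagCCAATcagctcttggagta
Ttk: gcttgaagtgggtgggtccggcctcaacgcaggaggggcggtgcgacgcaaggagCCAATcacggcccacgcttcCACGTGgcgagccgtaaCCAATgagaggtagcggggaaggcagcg
Bub1: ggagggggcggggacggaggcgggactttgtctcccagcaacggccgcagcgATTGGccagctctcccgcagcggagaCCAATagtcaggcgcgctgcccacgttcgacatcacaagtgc
Bub1b: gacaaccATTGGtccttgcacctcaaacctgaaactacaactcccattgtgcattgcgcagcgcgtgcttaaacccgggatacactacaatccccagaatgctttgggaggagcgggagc

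Both strands of the 300-base windows were searched, and no matches overlapped. The 9 genes had 11 windows, 3 of them of Fbxw7, and a gene was counted where any of its windows held a match. CCAAT stood in the windows of 6 of the 9 genes, Aurka, Bub1, Bub1b, Cdc20, Plk1 and Ttk, against 41.1% of all 27025 genes of the table. A CHR stood in 6 of the 9 genes, Aurka, Bub1b, Cdc20, Plk1, Ttk and Fbxw7, against 30.6% of all genes. Plk1 had a CHR at 29 to 24 bases before its start site and Cdc20 at 18 to 13 before it. In Aurka, Bub1b and Ttk the CHR lay after the start site, so it is not in the stretches above. The E-box was found for 1 gene, Ttk, at 45 to 40 bases before its start site, against 8.1% of all genes. None of the E2F forms searched, TTGGCGC and its variants with TTCCCGC and with TTCGCGC as letters, was in any of the 11 windows, against 9.2% of all genes. The windows of Mad2l1 and Melk held no match to any of the motifs. A match describes letters only and is no evidence of binding in these samples.

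Several features of the arrays bear on the comparisons with ganglia and neurospheres. The signal ratio of 3' over 5' probe sets for beta-actin, a measure of RNA integrity, was 4.36 to 9.14 in wild-type ganglia, 4.02 and 4.68 in homozygous ganglia, 1.96 to 3.28 in the tumors, 2.34 and 2.64 in tumorspheres, and 3.78 and 7.77 in neurospheres. The same ratio for GAPDH did not separate ganglia from tumors. It was 2.56 to 4.13 in wild-type ganglia, 3.75 and 3.91 in homozygous ganglia and 2.71 to 4.49 in the tumors. The summed intensity of 6 Schwann and satellite glia markers was 9934 to 11137 in wild-type ganglia, 7352 and 7516 in homozygous ganglia and 413 to 1079 in the tumors, and that of 6 fibroblast markers was 14742 to 17493, 13788 and 14959, and 2074 to 5875. Of the sympathetic markers, 9 were on the array. Their sum was 7600 to 27650 in ganglia, tumors and tumorspheres but 105 and 160 in neurospheres. Neurospheres carried the neural progenitor gene Sox2 at 3296 and 3783. The sum of 6 progenitor markers was 8405 and 9561 in neurospheres and 3543 to 4695 in wild-type ganglia. The glia marker sum was 5525 and 9279 in neurospheres and 1090 and 1234 in tumorspheres. No listed marker was at 0 on any array. Acta1, a skeletal muscle actin, was above 100 on 6 arrays. No pair of arrays correlated above 0.99, and none was counted as a repeat.

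The genes fell into a common pattern with 1 exception. In 9 of the 10, all but Fbxw7, the 4 wild-type ganglia were the lowest of the 20 arrays. By group mean, homozygous ganglia and neurospheres lay in between, and tumors and tumorspheres were highest. In wild-type ganglia 8 of the 40 readings of the 10 genes were under the 40th percentile of their array, against 0 readings in any other group. All 10 were higher in homozygous tumors than in wild-type ganglia, where 23.2% of the 15139 genes tested were called higher and 49.9% in either direction, with a median over the members of 3.43 against -0.12 over all genes tested. In hemizygous tumors 9 of the 10 were higher (27% of all genes were called higher and 52.7% in either direction), with a median of 3.86 against -0.05. A call here is an adjusted p below 0.05 in limma with Benjamini-Hochberg adjustment over all tested genes, and all these comparisons share the wild-type ganglia. In these bulk samples more dividing cells and more RNA per cell cannot be told apart. The actin ratio and the glial and fibroblast markers moved along with the difference between tumors and wild-type ganglia, and their part in it was not tested. The GAPDH ratio overlapped between these groups.

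**Figure D1:**
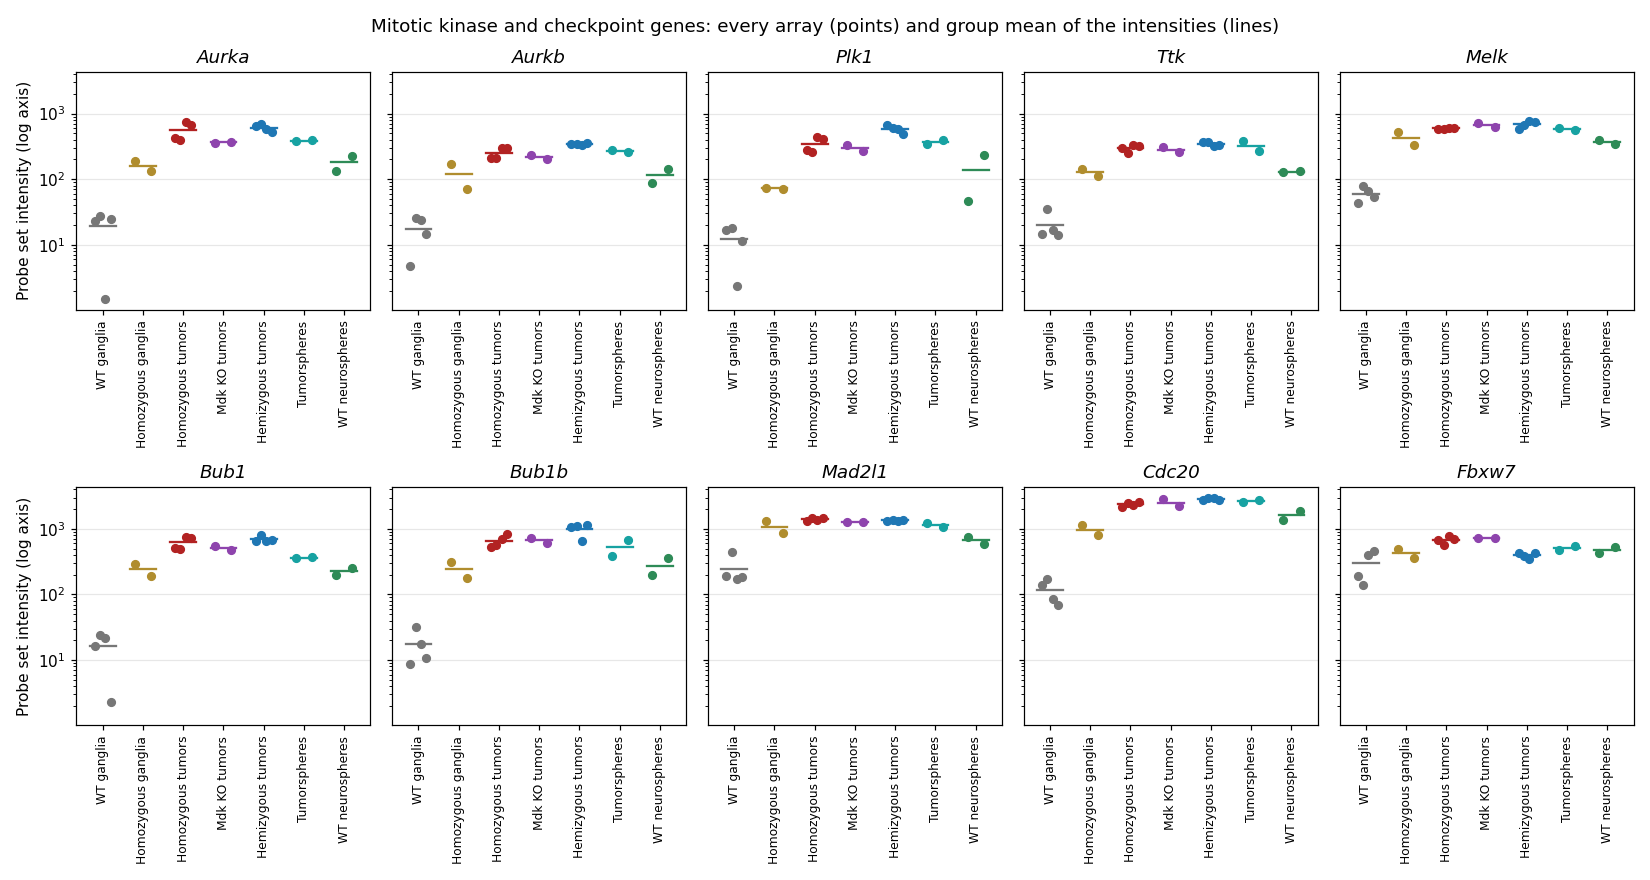
Intensity of the brightest probe set of each gene (log axis) on every array (points) with the group mean (lines), for the 7 groups from wild-type ganglia to wild-type neurospheres. In the plot for Cdc20 the wild-type ganglia sit between 68.7 and 171 and the tumors between 2156 and 2959, while the groups of Fbxw7 lie close together.

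Aurka encodes Aurora A, the kinase of centrosomes and spindle poles. Its intensity was 23.1, 27.6, 1.49 and 24.5 in wild-type ganglia, 189 and 131 in homozygous ganglia, and 430.5, 392, 740.0 and 665 in homozygous tumors. It was 357 and 369 in Mdk knockout tumors, 646, 688, 584 and 518 in hemizygous tumors, 383 and 392 in tumorspheres, and 132 and 229 in neurospheres. No wild-type ganglion reached the level of any other array, and the homozygous tumors spread more widely than the hemizygous ones. On the log2 scale Aurka was 4.06 ± 0.27 (SE) higher in homozygous tumors than in wild-type ganglia (16.7-fold, adjusted p = 1.64e-09, limma) and 4.23 ± 0.27 (SE) higher in hemizygous tumors (18.7-fold, adjusted p = 6.82e-10). It ranked 22nd from the top of all tested genes in the former comparison.

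Aurkb encodes Aurora B, the catalytic subunit of the chromosomal passenger complex, which corrects faulty attachments at kinetochores. Its intensity was 4.67, 25.6, 23.8 and 14.7 in wild-type ganglia, 168 and 69.9 in homozygous ganglia, 213, 211, 294 and 299 in homozygous tumors, and 339.9, 345, 333 and 357 in hemizygous tumors. Mdk knockout tumors read 232 and 200.2, tumorspheres 274 and 262, and neurospheres 87.4 and 142. The hemizygous tumors were all above the homozygous ones and close to each other. The differences from wild-type ganglia were 3.06 ± 0.24 (SE) in homozygous tumors (adjusted p = 1.27e-08, limma) and 3.49 ± 0.24 (SE) in hemizygous tumors (adjusted p = 1.85e-09). The probe set may by its name cross-match other transcripts, and the second Aurkb probe set, shared by several transcripts, gave 2.87 and 3.55.

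Plk1, Polo-like kinase 1, drives entry into mitosis and cytokinesis. Wild-type ganglia read 16.7, 17.8, 2.33 and 11.5, homozygous ganglia 73.3 and 71.0, homozygous tumors 277, 262, 433 and 404, Mdk knockout tumors 334 and 267, and hemizygous tumors 659.9, 606, 589.9 and 480.3. Tumorspheres read 348 and 397, and neurospheres 46.5 and 231. The hemizygous tumors lay above all homozygous tumors, and the ratio between the 2 neurosphere cultures was larger than for any other member. Plk1 was 3.69 ± 0.31 (SE) higher in homozygous tumors (adjusted p = 2.52e-08, limma) and 4.45 ± 0.31 (SE) higher in hemizygous tumors (adjusted p = 1.85e-09) than in wild-type ganglia.

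Ttk encodes MPS1, the kinase that starts the checkpoint signal at unattached kinetochores, and Melk is a kinase of proliferating progenitor and tumor cells whose own role in division is less settled. Ttk read 14.7, 35.4, 16.8 and 14.0 in wild-type ganglia, 144 and 111 in homozygous ganglia, 297, 252, 332 and 326 in homozygous tumors, and 364, 373, 320.4 and 333 in hemizygous tumors. It read 305 and 261 in Mdk knockout tumors, 377 and 269 in tumorspheres, and 129 and 131 in neurospheres. The neurospheres were as low as the homozygous ganglia and nearly equal to each other. Melk read 43.1, 78.5, 65.6 and 52.6 in wild-type ganglia, 530.4 and 333 in homozygous ganglia, 577, 592, 612 and 600.5 in homozygous tumors, and 581, 665, 769 and 752 in hemizygous tumors. Mdk knockout tumors read 713 and 632, tumorspheres 597 and 559, and neurospheres 398 and 345. The homozygous tumors were within a range of 577 to 612, the tightest group of 4 for this gene. Ttk rose by 3.16 ± 0.18 (SE) and Melk by 3.03 ± 0.17 (SE) from wild-type ganglia to homozygous tumors, each with an adjusted p of 2.74e-10 (limma). The values for hemizygous tumors were 3.36 ± 0.18 (SE) and 3.23 ± 0.17 (SE), each with an adjusted p of 1.16e-10.

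Bub1 and Bub1b encode the checkpoint kinase BUB1 and its relative BUBR1, which binds CDC20 in the mitotic checkpoint complex. Bub1 read 16.2, 24.4, 21.4 and 2.27 in wild-type ganglia, 293 and 190.2 in homozygous ganglia, 511, 495, 760.1 and 728 in homozygous tumors, and 659, 797, 645 and 676 in hemizygous tumors. Mdk knockout tumors read 555 and 479, tumorspheres 356 and 368, and neurospheres 197 and 256. The tumorspheres were below every tumor. Bub1b read 8.63, 32.1, 17.7 and 10.8 in wild-type ganglia, 313 and 179 in homozygous ganglia, 530.1, 566, 710.1 and 833 in homozygous tumors, and 1076, 1109.5, 659.7 and 1135 in hemizygous tumors. It read 732 and 599.8 in Mdk knockout tumors, 390.2 and 670.3 in tumorspheres, and 195 and 353 in neurospheres. Hemizygous tumor 3 stood well below the other hemizygous tumors and within the range of the homozygous ones. It also had the highest Acta1 intensity of all arrays, 2389.8, whose part in the low reading was not tested. These were the largest differences among the members. Bub1 was 4.35 ± 0.23 (SE) and Bub1b 4.37 ± 0.27 (SE) higher in homozygous tumors than in wild-type ganglia (adjusted p = 1.49e-10 and 6.42e-10, limma), and in hemizygous tumors the differences were 4.53 ± 0.23 (SE) and 4.94 ± 0.27 (SE) (adjusted p = 7.54e-11 and 1.33e-10).

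Mad2l1 encodes MAD2, which locks onto CDC20 to stop the anaphase-promoting complex. Its intensity was 188, 446, 173 and 184 in wild-type ganglia, 1294 and 865 in homozygous ganglia, and 1308, 1459.9, 1357 and 1471 in homozygous tumors. It was 1264 and 1253 in Mdk knockout tumors, 1312, 1364, 1338 and 1349 in hemizygous tumors, 1213 and 1080.7 in tumorspheres, and 738 and 592 in neurospheres. The hemizygous tumors were almost equal to each other, and 1 homozygous ganglion was above both Mdk knockout tumors and both tumorspheres. Mad2l1 had the smallest difference among the 9: 2.53 ± 0.22 (SE) in homozygous tumors (adjusted p = 5.25e-08, limma) and 2.47 ± 0.22 (SE) in hemizygous tumors (adjusted p = 5.1e-08) against wild-type ganglia.

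Cdc20 encodes the target of the checkpoint and activator of the anaphase-promoting complex. Its brightest probe set read 139.9, 171, 85.2 and 68.7 in wild-type ganglia, 1127 and 814 in homozygous ganglia, 2156, 2494, 2344 and 2579 in homozygous tumors, and 2735, 2959, 2952 and 2707 in hemizygous tumors. Mdk knockout tumors read 2815 and 2212, tumorspheres 2553 and 2739.5, and neurospheres 1362 and 1893. All hemizygous tumors were above all homozygous tumors, by a small margin. The difference from wild-type ganglia was 4.26 ± 0.21 (SE) in homozygous tumors (adjusted p = 1.17e-10, limma) and 4.50 ± 0.21 (SE) in hemizygous tumors (adjusted p = 3.52e-11). This probe set may cross-match other transcripts by its name, and the probe set specific to 1 transcript gave 3.75 and 4.30.

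The ganglia of homozygous mice were above wild-type ganglia for most members. Of the members, 9 were higher in homozygous ganglia, where 4.02% of all tested genes were called higher and 5.09% in either direction, with a median of 2.26 over the 10 members against -0.02 over all genes tested. The largest differences were those of Bub1 at 3.04 ± 0.28 (SE) (adjusted p = 1.54e-06, limma), Bub1b at 2.98 ± 0.33 (SE) (adjusted p = 1.03e-05) and Cdc20 at 2.95 ± 0.26 (SE) (adjusted p = 1.03e-06). Plk1 had the smallest of the 9, 1.69 ± 0.38 (SE) (adjusted p = 0.0118), and its call was lost without homozygous ganglion 1 (adjusted p = 0.18) or 2 (adjusted p = 0.0941). The lowest homozygous ganglion was above the highest wild-type ganglion in all 9 genes, as in 14.1% of all tested genes. Between the ganglia 1 of 6 Schwann and satellite glia markers and 0 of 6 fibroblast markers were called, the former lower.

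The step from homozygous ganglia to homozygous tumors was uneven among the members. For all 10 genes every homozygous tumor was above both ganglia, as in 27.1% of all tested genes, and 7 were called higher (9.37% of all tested genes were called higher, 21.7% in either direction). Plk1 differed most, by 1.998 ± 0.38 (SE) (adjusted p = 0.00134, limma), and the mean intensity of the ganglia was 21.0% of that of the tumors. Aurka followed at 1.67 ± 0.33 (SE) (adjusted p = 0.00183) and 28.8%. Bub1, Bub1b, Cdc20, Ttk and Aurkb differed by 1.08 to 1.39, with ganglia at 37.3% to 46.9% of the tumor mean. Mad2l1 (0.40 ± 0.28 SE, adjusted p = 0.337) and Melk (0.49 ± 0.21 SE, adjusted p = 0.108) did not pass, and their ganglia were at 77.2% and 72.5%. Without homozygous ganglion 2, which was the lower of the pair for all 10 genes and had an Acta1 intensity of 867, only Plk1 was called (1.98, adjusted p = 0.0298). In the tumors all 6 Schwann and satellite glia markers tested were lower than in homozygous ganglia, a difference whose part in these results was not tested.

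**Figure D2:**
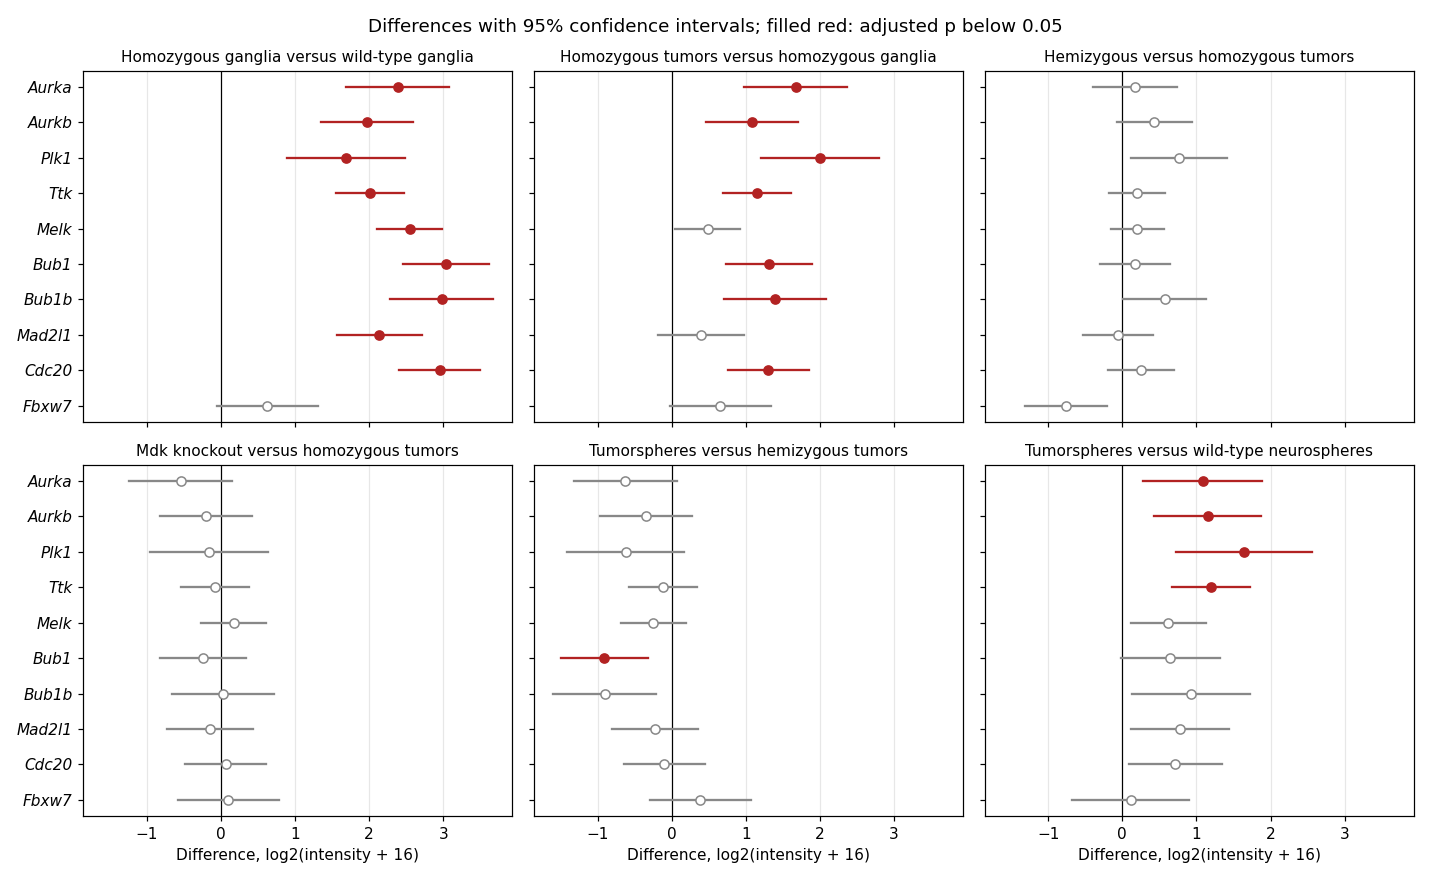
Differences of log2(intensity + 16) for the 10 genes in 6 comparisons, with points for the estimate and bars for its 95% confidence interval, filled red where the limma adjusted p was below 0.05. Calls fill 9 of 10 genes in homozygous against wild-type ganglia and none in the comparisons between hemizygous and homozygous tumors or between Mdk knockout and homozygous tumors.

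Hemizygous and homozygous tumors were compared next, which sets tumors of mice with different transgene dosage side by side. No member was called (6.25% of all tested genes were called in either direction), and 3 had an unadjusted p below 0.05. The share of all tested genes at that unadjusted cut-off is not given here, so the count is no result about the members. Plk1 was 0.76 higher in hemizygous tumors (95% confidence interval 0.11 to 1.41, adjusted p = 0.158, limma), Bub1b 0.57 higher (0.01 to 1.13, adjusted p = 0.232) and Fbxw7 lower, at -0.76 (-1.31 to -0.20, adjusted p = 0.101). The intervals of Aurka (-0.40 to 0.74), Bub1 (-0.30 to 0.65) and Mad2l1 (-0.53 to 0.41) leave room for differences in either direction. The tumors did not overlap for Plk1, Aurkb and Cdc20, all higher in hemizygous tumors (11.9% of all tested genes), and for Fbxw7, lower (8.79%). Endothelial markers differed as well, with 4 of 5 called higher in hemizygous tumors and sums of 248 to 387 against 103 to 128, and their part in these values was not tested.

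The homozygous tumors were themselves split by their replicate numbers. Tumors 1 and 2 were below tumors 3 and 4 in 8 of the 10 genes, all but Cdc20 and Mad2l1, as were 26% of all tested genes, and a further 27.7% of tested genes were split the other way. Mean Aurka intensity was 411 in tumors 1 and 2 and 702 in tumors 3 and 4, and mean Plk1 intensity was 269.6 and 418. In hemizygous tumors 1 and 2 were above 3 and 4 for Aurka, Plk1 and Ttk, as in 21.8% of all tested genes, and below them for Melk, as in 31.1%, while the other 6 members overlapped. The comparison of the genotypes therefore changed with the tumors used. With only tumors 1 and 2 of each genotype Aurka was 0.68 higher in hemizygous tumors, and with only 3 and 4 it was -0.34. Neither value passed in limma (adjusted p = 0.118 and 0.584). The actin 3' to 5' ratio was 2.47 and 2.81 in homozygous tumors 1 and 2 and 2.44 and 2.48 in 3 and 4, and Mki67, a marker of proliferating cells, was not split (2365 and 2578 against 2529 and 2287). What the replicate numbers stand for is not stated in the labels.

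**Figure D3:**
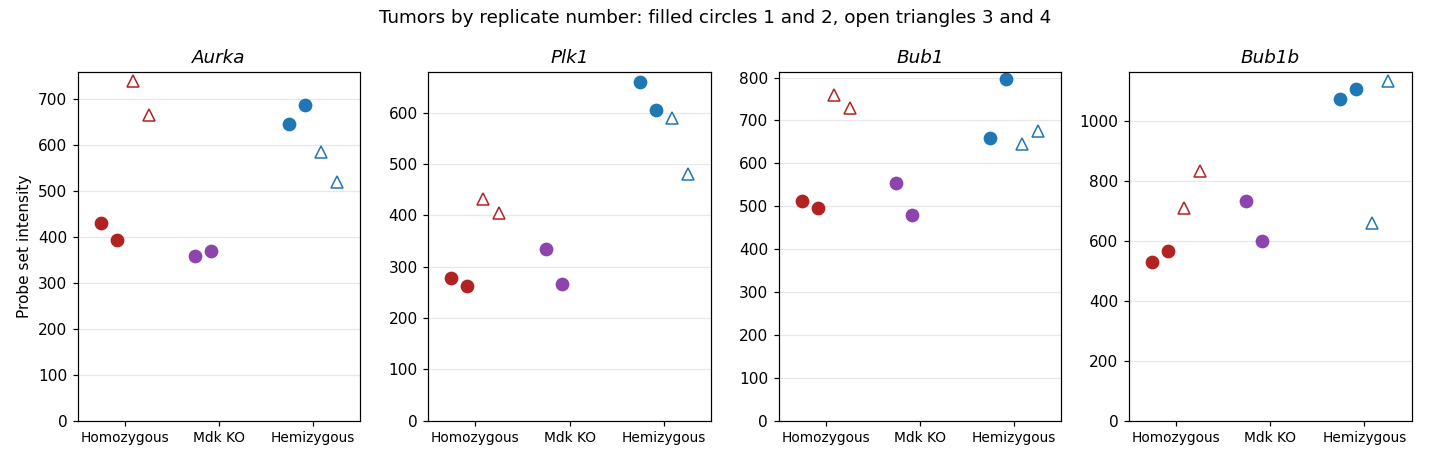
Intensity of Aurka, Plk1, Bub1 and Bub1b in every tumor (linear axes from 0), by group, with filled circles for replicates 1 and 2 and open triangles for 3 and 4. In homozygous tumors the triangles are above the circles for all 4 genes, and the Mdk knockout tumors lie near the homozygous circles for Aurka (357 and 369 against 430.5 and 392).

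The Mdk knockout was carried by 2 homozygous tumors. No member was called against homozygous tumors with intact Mdk, at an unadjusted or adjusted p below 0.05 in limma, and 0.00661% of tested genes were, which is 1 gene, Mdk itself. The largest difference was that of Aurka, -0.55 (95% confidence interval -1.24 to 0.15). Both knockout tumors were below all 4 others for Aurka and Mad2l1, as in 8.4% of tested genes, and above them for Melk, as in 8.1%, while the other 7 members overlapped. Against homozygous tumors 1 and 2 alone the Aurka difference was -0.17 and against 3 and 4 alone -0.92. The intervals of the other 9 members reached from -0.96 at the lowest to 0.78 at the highest, so changes within those limits were not excluded. Against wild-type ganglia all 10 were higher in the knockout tumors (19.2% of all tested genes were called higher and 39.7% in either direction), from 1.38 ± 0.32 (SE) for Fbxw7 to 4.40 ± 0.33 (SE) for Bub1b (adjusted p = 0.00245 and 1.95e-08, limma).

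Tumorspheres of hemizygous mice were below the hemizygous tumors in the mean for 9 of the members, and 1 was called (6.99% of all tested genes were called lower). Both tumorspheres were below all 4 tumors for Aurka, Aurkb, Plk1, Bub1 and Mad2l1, as in 20.4% of all tested genes. Bub1 was -0.91 ± 0.28 (SE) (adjusted p = 0.0384, limma), with a mean intensity at 52.1% of that of the tumors. Bub1b gave the same size, -0.91 ± 0.33 (SE), and did not pass (adjusted p = 0.0803), with tumorspheres at 390.2 and 670.3. Leaving out hemizygous tumor 3, the low Bub1b reading, both genes were called (adjusted p = 0.0467 for Bub1 and 0.0354 for Bub1b). Leaving out any other single array of the comparison no member was called, so the Bub1 call rests on each of the other 5. The second, dimmer Bub1 probe set was not called, with means of 40.3 in tumorspheres and 42.9 in hemizygous tumors. Cdc20 and Ttk stayed at 93.2% and 93.1% of the tumor mean, and Fbxw7 was the member with a higher mean in tumorspheres (0.38, 95% confidence interval -0.30 to 1.07). In tumorspheres 6 of 6 macrophage, 5 of 6 fibroblast and 5 of 5 endothelial markers tested were lower, with summed macrophage intensities of 49.6 and 95.9 against 1616 to 3724. Their part in the Bub1 difference was not tested.

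Tumorspheres and wild-type neurospheres are both cultures, but the latter lacked sympathetic markers, so the comparison also sets different lineages side by side. All members but Fbxw7 were higher in both tumorspheres than in both neurospheres, as in 39.5% of all tested genes. Of them 4 were called (23.5% of all tested genes were called higher, 38.4% in either direction), with a median of 0.85 over the members against 0.11 over all genes tested. Plk1 was 1.64 ± 0.44 (SE) higher (adjusted p = 0.00599, limma), Ttk 1.20 ± 0.25 (SE) (adjusted p = 0.00105), Aurkb 1.15 ± 0.34 (SE) (adjusted p = 0.0123) and Aurka 1.08 ± 0.38 (SE) (adjusted p = 0.0316). Melk, Mad2l1, Bub1b and Cdc20 had values of 0.62 to 0.92 and adjusted p-values of 0.051 to 0.0689, and Bub1 0.65 (adjusted p = 0.121). Without neurosphere 1 only Ttk was called, and without tumorsphere 2 the count was 2. The neurospheres differed in the GAPDH 3' to 5' ratio (3.37 and 11.5) and in Plk1 (46.5 and 231). Neurospheres were in turn above wild-type ganglia in the same 9 members (16.8% of all tested genes were called higher and 39.2% in either direction), from 1.47 ± 0.28 (SE) for Mad2l1 to 3.69 ± 0.26 (SE) for Cdc20 (adjusted p = 0.000321 and 3.41e-09, limma).

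Fbxw7, the substrate receptor of an SCF ubiquitin ligase, did not follow the other members. Its brighter probe set read 194, 141, 405 and 455 in wild-type ganglia, 495 and 359 in homozygous ganglia, 664, 572, 778 and 695 in homozygous tumors, and 421, 383, 343 and 425 in hemizygous tumors. It read 728 and 718 in Mdk knockout tumors, 484 and 550.3 in tumorspheres, and 421 and 537 in neurospheres. Wild-type ganglion 3 lay among the hemizygous tumors and 4 above them, while 1 and 2 were the lowest of the 20 arrays. The order of the means from high to low was Mdk knockout tumors, homozygous tumors, tumorspheres, neurospheres, homozygous ganglia, hemizygous tumors and wild-type ganglia. Of the groups compared with wild-type ganglia, only homozygous and Mdk knockout tumors were called, and tumorspheres were not among those compared. Fbxw7 was 1.28 ± 0.27 (SE) higher in homozygous tumors (adjusted p = 6.01e-04, limma) and 0.52 ± 0.27 (SE) higher in hemizygous tumors (adjusted p = 0.108).

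For the brighter Fbxw7 probe set, the difference from wild-type ganglia changed with the replicates used. With wild-type ganglia and tumors 1 and 2 alone the difference was 1.20 in hemizygous tumors (adjusted p = 0.000757, limma) and 1.80 in homozygous tumors (adjusted p = 5.89e-05). With 3 and 4 alone it was -0.16 (adjusted p = 0.55) and 0.75 (adjusted p = 0.0111). For homozygous against wild-type ganglia, 0.62 over all (adjusted p = 0.274), the values were 1.27 (adjusted p = 0.00633) with wild-type ganglia 1 and 2, and -0.02 (adjusted p = 0.939) with 3 and 4. Wild-type ganglia 1 and 2 also had Acta1 intensities of 1042 and 529 against 16.02 and 7.10, and Xist, a transcript of female cells, at 2411 and 2481 against 44.0 and 30.7. Muscle admixture, sex and any other difference between these pairs cannot be told apart. Of all tested genes 34.9% were higher in wild-type ganglia 1 and 2 than in 3 and 4 and 30.4% lower, and among the members 3 (Plk1, Cdc20 and Mad2l1) were higher and 1, Fbxw7, lower.

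The dimmer Fbxw7 probe set, shared by several transcripts by its name, placed all wild-type ganglia below every array of the other groups but the neurospheres. It read 45.8, 24.5, 47.9 and 53.3 in wild-type ganglia, 149 and 96.8 in homozygous ganglia, 296, 176, 191 and 184 in homozygous tumors, and 138, 90.1, 122 and 112 in hemizygous tumors. It read 189 and 259 in Mdk knockout tumors, 206 and 185 in tumorspheres, and 39.3 and 55.6 in neurospheres. All homozygous tumors were above all hemizygous tumors, and both kinds above all wild-type ganglia. Fitted over 34922 probe sets, it was higher in hemizygous tumors (1.18 ± 0.21 SE, adjusted p = 1.18e-04, limma) and in homozygous ganglia (1.24 ± 0.25 SE, adjusted p = 0.00687) than in wild-type ganglia, and lower in hemizygous than in homozygous tumors (-0.78 ± 0.21 SE, adjusted p = 0.0357). The brighter one gave -0.76 ± 0.26 (SE) for the last comparison, with an adjusted p of 0.107. The probe sets differed in the spheres: tumorspheres were 1.75 ± 0.29 (SE) above neurospheres with the dimmer (adjusted p = 1.51e-04) and 0.11 ± 0.37 (SE) with the brighter (adjusted p = 0.858).

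**Figure D4:**
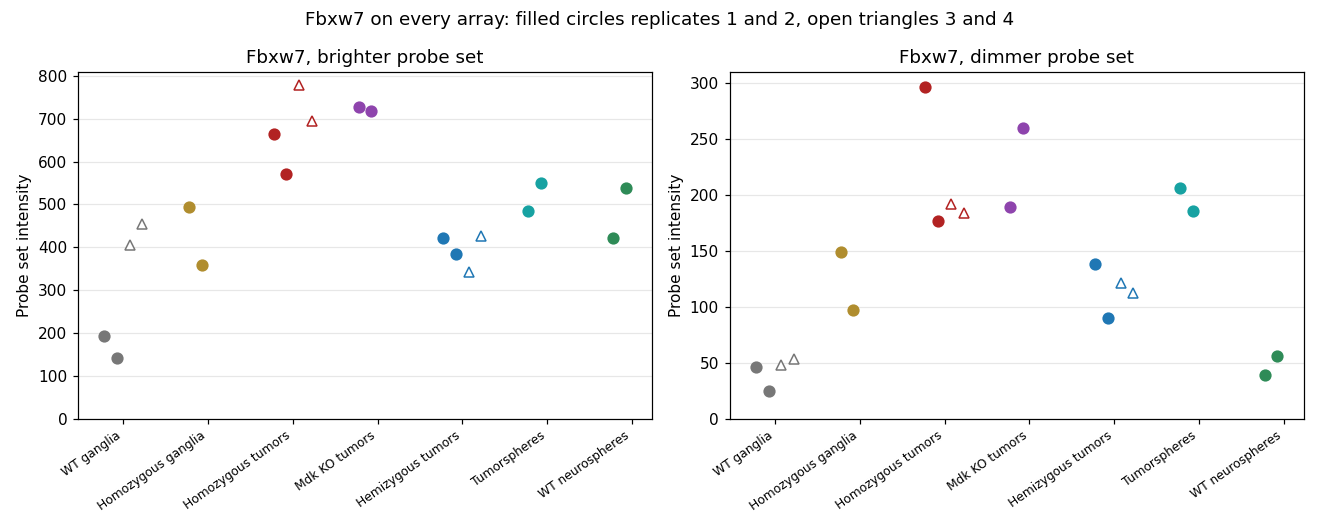
Intensity of the brighter (left) and dimmer (right) Fbxw7 probe set on every array (linear axes from 0), with filled circles for replicates 1 and 2 and open triangles for 3 and 4. The brighter probe set separates wild-type ganglia 1 and 2 (194 and 141) from 3 and 4 (405 and 455), and both probe sets place hemizygous below homozygous tumors.

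The other probe sets mostly followed the brightest. Against wild-type ganglia, 18 of the 19 probe sets were called higher in homozygous tumors and 18 in hemizygous tumors, where 46.7% and 47.4% of all probe sets were called in either direction. The exception in homozygous tumors was a dim Bub1b probe set with a mean of 5.59 over the arrays (0.20), and in hemizygous tumors it was the brighter Fbxw7 probe set. In homozygous ganglia 16 were higher (4.34% of all probe sets called), and in homozygous tumors against homozygous ganglia 13 (18.8%). These shares and those that follow also count probe sets called in either direction. In Mdk knockout tumors 18 were higher than in wild-type ganglia (35.4%), and in neurospheres 15 (34.4%). Against homozygous tumors none was called in knockout tumors (0.00286%) and 1, the dimmer Fbxw7 probe set, in hemizygous tumors (5.12%). In tumorspheres against hemizygous tumors 2 were lower (9.23%), the brightest of Bub1 and the second of Aurka. The latter gave -1.33 ± 0.28 (SE, adjusted p = 0.00458, limma), where the brighter one gave -0.62 and did not pass. In tumorspheres against neurospheres 9 were higher (32.2% of all probe sets called), among them a Bub1b probe set at 1.38 and Cdc20 probe sets at 1.53 and 0.96 whose brighter partners had not passed.

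The other genes of these pathways are given as lists. Among all tested genes 23.2% were called higher and 26.7% lower in homozygous tumors than in wild-type ganglia, 27% and 25.7% in hemizygous tumors, and 4.02% higher in homozygous ganglia. Of 7 listed genes of the chromosomal passenger complex and Aurora activators, 5 rose and 2, Ajuba and Aurkc, fell in homozygous tumors against wild-type ganglia, with the same counts in hemizygous tumors, and 5 rose in homozygous ganglia. Aurkc, the third Aurora kinase gene, was -0.80 ± 0.16 (SE) in homozygous tumors. Cdca8, which encodes borealin, was 3.93 ± 0.22 (SE) higher in homozygous tumors (adjusted p = 2.26e-10, limma), with a mean intensity of 1844 against 113. Tpx2, the spindle factor that activates Aurora A, was 3.40 ± 0.21 (SE) higher, and Incenp, the scaffold of the passenger complex, 3.09 ± 0.19 (SE). Birc5, which encodes survivin, was 3.38 ± 0.31 (SE) higher in tumorspheres than in neurospheres (adjusted p = 1.34e-07), with means of 829 and 67.3. Ajuba, an adaptor of Aurora A, was higher in hemizygous than in homozygous tumors (0.87 ± 0.20 SE, adjusted p = 0.0167), at 42.8 and 15.6, and -1.49 ± 0.25 (SE) in tumorspheres against hemizygous tumors. Bora, an activator of Aurora A and Plk1, was 1.66 ± 0.26 (SE) higher in homozygous tumors than in homozygous ganglia (adjusted p = 2.92e-04).

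Of 16 other mitotic kinases and phosphatases, 12 rose and 1 fell in homozygous tumors, 14 rose and 2 fell in hemizygous tumors, and 8 rose in homozygous ganglia, each against wild-type ganglia. The shares of all tested genes were 23.2% higher and 26.7% lower in homozygous tumors, 27% and 25.7% in hemizygous tumors, and 4.02% higher in homozygous ganglia. Nek2, a centrosome kinase, had the largest difference of all the listed genes in homozygous tumors, 4.45 ± 0.34 (SE) (adjusted p = 9.54e-09, limma), from a mean of 21.7 to 776. Pbk was 3.79 ± 0.25 (SE) and the phosphatase gene Cdc25c 3.35 ± 0.21 (SE) higher. Nek7 went the other way between homozygous ganglia and tumors, at -1.68 ± 0.29 (SE) (adjusted p = 7.38e-04). Against hemizygous tumors, tumorspheres were higher in Plk3 (1.66 ± 0.35 SE, adjusted p = 0.00415) and lower in Plk4, the kinase of centriole duplication (-0.89 ± 0.23 SE, adjusted p = 0.0168), and in Wee1, which restrains entry into mitosis (-1.30 ± 0.35 SE, adjusted p = 0.0189). Nek6 was the gene of this list called between the genotypes of tumors, 0.81 ± 0.13 (SE) higher in hemizygous tumors (adjusted p = 0.00142).

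Among 20 checkpoint and kinetochore genes, 17 rose in homozygous and in hemizygous tumors, 16 in homozygous ganglia and 16 in neurospheres against wild-type ganglia, with no gene lower in any of these. Of all tested genes 23.2% were called higher in homozygous tumors, 27% in hemizygous tumors, 4.02% in homozygous ganglia and 16.8% in neurospheres. Trip13, the ATPase that remodels MAD2, was 3.92 ± 0.24 (SE) higher in homozygous tumors (adjusted p = 7.58e-10, limma), Cenpf 3.91 ± 0.27 (SE) and Spc25, a subunit of the outer kinetochore, 3.76 ± 0.23 (SE). Zwilch, of the complex that brings dynein to kinetochores, led the list in hemizygous tumors at 4.02 ± 0.23 (SE). From homozygous ganglia to homozygous tumors 5 of the 20 rose, where 9.37% of all tested genes did, among them Cenpe (0.99 ± 0.22 SE, adjusted p = 0.00459). Mad2l2, a relative of Mad2l1 that works in DNA damage tolerance, was the gene of this list called between tumorspheres and hemizygous tumors (1.33 ± 0.29 SE, adjusted p = 0.00429). Between hemizygous and homozygous tumors none of the 20 was called.

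Of 21 listed genes of the anaphase-promoting complex, its regulators and substrates, 20 were tested. In homozygous tumors against wild-type ganglia 13 rose and 1, the subunit gene Anapc10, fell (23.2% of all tested genes were called higher and 26.7% lower), with a median of 1.04. The largest differences were those of Ube2c, its ubiquitin-conjugating enzyme, at 3.72 ± 0.30 (SE) (adjusted p = 1.88e-08, limma), and the cyclins Ccna2 at 3.38 ± 0.23 (SE) and Ccnb2 at 3.30 ± 0.29 (SE). Espl1, which encodes separase, was 0.95 ± 0.18 (SE) higher in hemizygous than in homozygous tumors (adjusted p = 0.00433), with means of 378 ± 9.01 (SD, n = 4) and 189 ± 24.7 (SD, n = 4), and 2.23 ± 0.26 (SE) higher in tumorspheres than in neurospheres (adjusted p = 2.11e-06). Anapc1, a scaffold subunit, was 0.67 ± 0.19 (SE) higher in hemizygous tumors (adjusted p = 0.0432). Anapc10 was lower in homozygous tumors than in homozygous ganglia (-1.46 ± 0.36 SE, adjusted p = 0.00805).

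A list of 16 genes held SCF ligase partners, with other F-box genes among them, and Fbxw7 substrates. Against wild-type ganglia 7 rose and 4 fell in homozygous tumors, and 7 rose and 5 fell in hemizygous tumors, with medians of 0.21 and 0.26. Among all tested genes 23.2% rose and 26.7% fell in homozygous tumors, and 27% and 25.7% in hemizygous tumors, so the share of the list that fell was near that of all genes. Skp2, another F-box protein, was 2.51 ± 0.23 (SE) higher in homozygous tumors (adjusted p = 6.6e-08, limma) and Ccne1, the cyclin E gene whose protein is an Fbxw7 substrate, 2.29 ± 0.18 (SE) (adjusted p = 9.42e-09), while Klf5 was -1.86 ± 0.19 (SE). In hemizygous tumors Ccne1 was below homozygous tumors (-0.93 ± 0.18 SE, adjusted p = 0.00412), as was Btrc, the gene of a further F-box protein (-0.995 ± 0.17 SE, adjusted p = 0.00174). The array's Mycn probe set, for the mouse gene, averaged 319 ± 72.9 in wild-type ganglia, 144 ± 21.8 in homozygous tumors and 39.1 ± 28.6 in hemizygous tumors (SD, n = 4 each), and 351 and 583 in the tumorspheres. It was thus 3.23 ± 0.34 (SE) higher in tumorspheres than in hemizygous tumors (adjusted p = 4.98e-06). Whether it also reads the transgene is not known here. Notch1 and Skp2 were lower in tumorspheres than in hemizygous tumors, at -1.99 ± 0.33 (SE) and -1.62 ± 0.28 (SE).

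The genes whose profile over the 7 group means was most like the mean of the 9 members other than Fbxw7 were Uhrf1, Cenpe, Dtl, Arhgap19 and Prc1, with a root mean square difference of 0.13 to 0.18 on the log2 scale after centring each profile. The 9 members themselves lay between 0.17 for Aurka and 0.49 for Mad2l1 from that mean, and Fbxw7 at 0.96. Each of the 9 is part of that mean, which draws it closer, and Fbxw7 is not. The profiles most like that of Fbxw7 were those of Zbtb14, Atpaf1, Lpcat1, Gpr161 and Adgrb2, at 0.11 to 0.14. Mean log2(intensity + 16) of Zbtb14 was 7.35 in wild-type ganglia, 8.58 in homozygous tumors and 7.97 in hemizygous tumors. Gpr161 and Adgrb2 were dim, with group means of at most 6.02 and 5.51 on that scale. Mad2l1 was the member nearest to Fbxw7, at 0.58.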

How the data were processed

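The files hold 1 linear intensity per probe set and array, deposited after scaling by the authors: the mean without the top and bottom 2% was 100.0 on each array. The summarising software was not given in the sources used here. RNA (40 ng in total) was amplified in 2 cycles before labelling, per the labels' protocols. Of 45101 probe sets, 64 controls were left out. The array annotation gave 34945 of the rest 1 symbol, 932 several and 9160 none, and 34741 symbols were updated through gene identifiers of the RefSeq table. Values were taken as log2(intensity + 16), and genes were tested when 2 or more arrays had them above that array's 40th percentile, as held for 15139 genes with all 10 members among them. limma 3.58.1 in R 4.3.3 was fitted to all 20 arrays with 7 group means and 13 residual degrees of freedom. Tests of the 10 comparisons covered both directions, with Benjamini-Hochberg adjustment over all tested genes in each, a threshold of 0.05 and 95% intervals, and the procedure was checked on simulated data. The number of arrays limits the precision, and no detection calls were used.

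The members, gene lists and tests were chosen with earlier results of these data known. All members are named in every comparison. From each other list the text names among the 3 genes with the largest difference in tumors against wild-type ganglia or, in the other comparisons, the 3 called genes with the smallest p. Same-numbered samples did not deviate together throughout: of 26 pairs across the compared groups, 6 had a correlation over 0.1 (range -0.32 to 0.28). For homozygous tumors and wild-type ganglia the values were 0.067, 0.255, 0.206 and 0.138. For hemizygous and homozygous tumors they were -0.183, -0.309, -0.135 and -0.254. The numbers were not taken to pair samples in the main fit. The alternatives tried were median centring, quantile normalization, other pseudocounts (1 and 64), a filter at the 60th percentile or none, only the compared arrays, the fit by probe set, the replicate number as a block, each pair of replicates in the groups of 4, leaving out arrays with Acta1 above 100, and leaving out each array.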

Additional observations from a re-analysis of the deposited data

Results flagged for a closer look

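Among the 30 sets of 4 samples examined, 3 held a sample far from the others, where chance marks about 1 in 20. Bub1b, the gene of the checkpoint protein BUBR1, read 659.7 in hemizygous tumor 3 and 1076 to 1135 in the other hemizygous tumors. Mad2l1, the MAD2 gene, read 446 in wild-type ganglion 2 and 173 to 188 in the other wild-type ganglia. Ttk, the MPS1 kinase gene, read 35.4 in the same ganglion and 14.0 to 16.8 in the others. Mki67, a proliferation marker, was also highest in wild-type ganglion 2 among wild-type ganglia, at 472 against 130.1 to 335.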

How the results depend on the processing

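Counts of members called in limma kept within 1.5 times in the comparisons of tumors, homozygous ganglia and neurospheres with wild-type ganglia and of Mdk knockout with homozygous tumors, under all alternatives run. For homozygous tumors against homozygous ganglia (7 called) the count was 4 with a pseudocount of 1, 4 without arrays with Acta1 above 100, and 1 to 7 leaving out each array. For hemizygous against homozygous tumors (0 called) it was 2 with only the compared arrays, 1 with replicates 3 and 4, and 1 without the Acta1 arrays. For tumorspheres against hemizygous tumors (1 called) it was 0 with median centring, a pseudocount of 1, the replicate block or replicates 3 and 4, 2 with a pseudocount of 64, replicates 1 and 2 or without the Acta1 arrays, and 0 to 2 leaving out each array. For tumorspheres against neurospheres (4 called) it was 2 with a pseudocount of 1 or only the compared arrays, 9 with a pseudocount of 64, 7 with replicates 3 and 4, 8 without the Acta1 arrays, and 1 to 6 leaving out each array. The shares of all tested genes called under these alternatives are not given here. The counts therefore cannot tell a change in the members from a change over all genes. The causes were not tested.

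Of single member differences 1732 kept direction and side of the threshold, 43 lost and 42 gained a call, and 23 changed sign. With replicates 3 and 4, Fbxw7 was -0.16 in hemizygous tumors and -0.025 in homozygous ganglia against wild-type ganglia, and -0.066 in the former without the Acta1 arrays. In hemizygous against homozygous tumors, replicates 3 and 4 gave Aurka -0.34, Bub1 -0.17 and Ttk -0.0096, and quantile normalization Mad2l1 0.0066. In Mdk knockout against homozygous tumors, replicates 1 and 2 gave Aurkb 0.0225, Plk1 0.14, Bub1 0.034 and Ttk 0.0405, and replicates 3 and 4 Bub1b -0.21 and Fbxw7 -0.023. Leaving out each array there, Bub1b ranged from -0.11 to 0.17, Cdc20 from -0.11 to 0.24 and Ttk from -0.19 to 0.020, each with its lowest and highest value when a knockout tumor was left out; Cdc20 was also -0.015 with quantile normalization and -0.072 with the replicate block. In tumorspheres against hemizygous tumors Cdc20 was 0.0086 with median centring and Ttk ranged from -0.35 to 0.12 leaving out each array, and against neurospheres Fbxw7 ranged from -0.057 to 0.28.

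With the replicate block the counts were 10, 9 and 9 for homozygous tumors, hemizygous tumors and homozygous ganglia against wild-type ganglia, and 6 for homozygous tumors against homozygous ganglia. In wild-type ganglia Aurka, Aurkb, Plk1, Bub1, Bub1b and Ttk were near the dim end of the arrays, with means of 12.1 to 20.2. Melk, Cdc20, Mad2l1 and Fbxw7 were brighter there, at 59.9 to 299. The size of the differences from wild-type ganglia depends on the pseudocount: the median over the members in homozygous tumors was 4.23 with 1 and 2.41 with 64.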
